A study of Mus musculus with 6 samples.

Results

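The homeostatic chemokines and their receptors were examined as a group of 9 genes, picked by name as the stromal and lymphoid members of these axes: the ligands *Cxcl12*, *Cxcl13*, *Cxcl14*, *Ccl19* and *Ccl21a*, the receptors *Cxcr4*, *Cxcr5* and *Ccr7*, and the scavenging receptor *Ackr3*. They are 9 of the 54309 mouse gene identifiers in the table, of which 24056 had a read in any tumor, and all 9 were found. Whole subcutaneous tumors of MCA205, a mouse fibrosarcoma line, were profiled by bulk RNA sequencing to ask how FF-10101 acts on the tumor microenvironment (TME). FF-10101 is a kinase inhibitor, made against FLT3, that also blocks CSF1R, the receptor on which most tissue macrophages depend. All mice were female C57BL/6J, aged 7 weeks, and had received 1000000 tumor cells under the skin of the right flank. The control group (3 tumors) drank milliQ water. The FF-10101 group (3 tumors) drank FF-10101 at 0.1 mg/mL from day 1, and tumors of both groups were taken on day 8. The model is 1 cell line at 1 time point, and each library holds RNA of tumor cells, host stroma and host leukocytes together.

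Homeostatic chemokines are made constantly by stromal cells and place leukocytes within tissues, in contrast to the inflammatory chemokines that are switched on by injury. CXCL12 from fibroblasts and perivascular cells retains CXCR4-bearing leukocytes and progenitors, and ACKR3 binds the same ligand and removes it. CXCL13 draws CXCR5-bearing B cells and follicular helper T cells into follicles, whereas CCL19 and CCL21 draw CCR7-bearing T cells and mature dendritic cells into T cell zones. CCL21 is also made by lymphatic endothelium, through which dendritic cells leave a tissue for the lymph node.

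Between 9143806 and 13258258 reads and between 18467 and 19440 genes with a read were recovered per tumor, and 3 reads correspond to 2.29 to 3.38 normalized counts, that is, reads over the tumor's size factor. Control tumor 1 stood apart from its group. Across genes, its Pearson r with control tumors 2 and 3 was 0.93 and 0.92, against 0.95 to 0.96 with the 3 FF-10101–treated tumors, so values are also given without it where this matters. The FF-10101–treated tumors had less RNA of macrophage markers, with summed levels of 23622 to 32870 normalized counts against 36198 to 64397 in the control tumors. Summed levels were higher for neutrophil markers (1825 to 2779 against 772 to 1650.2), fibroblast markers (16733 to 27959 against 8408 to 16250) and pericyte markers (3098 to 3249 against 1543 to 2395), although 0 of the 7 pericyte markers were apart singly and *Cspg4* had a log2 fold change of −1.17. In bulk RNA, fewer cells of a type and less RNA per cell cannot be told apart.

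None of the homeostatic chemokine or receptor genes passed an adjusted p of 0.05 (limma, Benjamini-Hochberg adjustment over the 13963 genes averaging 10 normalized counts or more). The count was 0 of 8 tested, where 0.043% of all genes passed. *Cxcr5* lay below this minimum. At an unadjusted p of 0.05 there was 1 of 8, *Cxcr4*, against 16.3% of all genes tested (8.77% higher and 7.49% lower). With limma-voom on the recovered reads the counts were again 0 and 1, and with the replicate number as a block they were 0 and 0. The estimates lay above 0 for 6 of the 8, with a median log2 fold change of 0.64 against 0.02 over all genes tested. The groups were apart for *Cxcr4*, 1 of 8, where 10.9% of all genes tested had every FF-10101–treated tumor above every control tumor and 20.2% were apart in either direction. Without control tumor 1, *Cxcr4* and *Ackr3* passed the adjusted p of 0.05, in a fit in which 22% of 13986 genes passed.

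**Figure D1:**
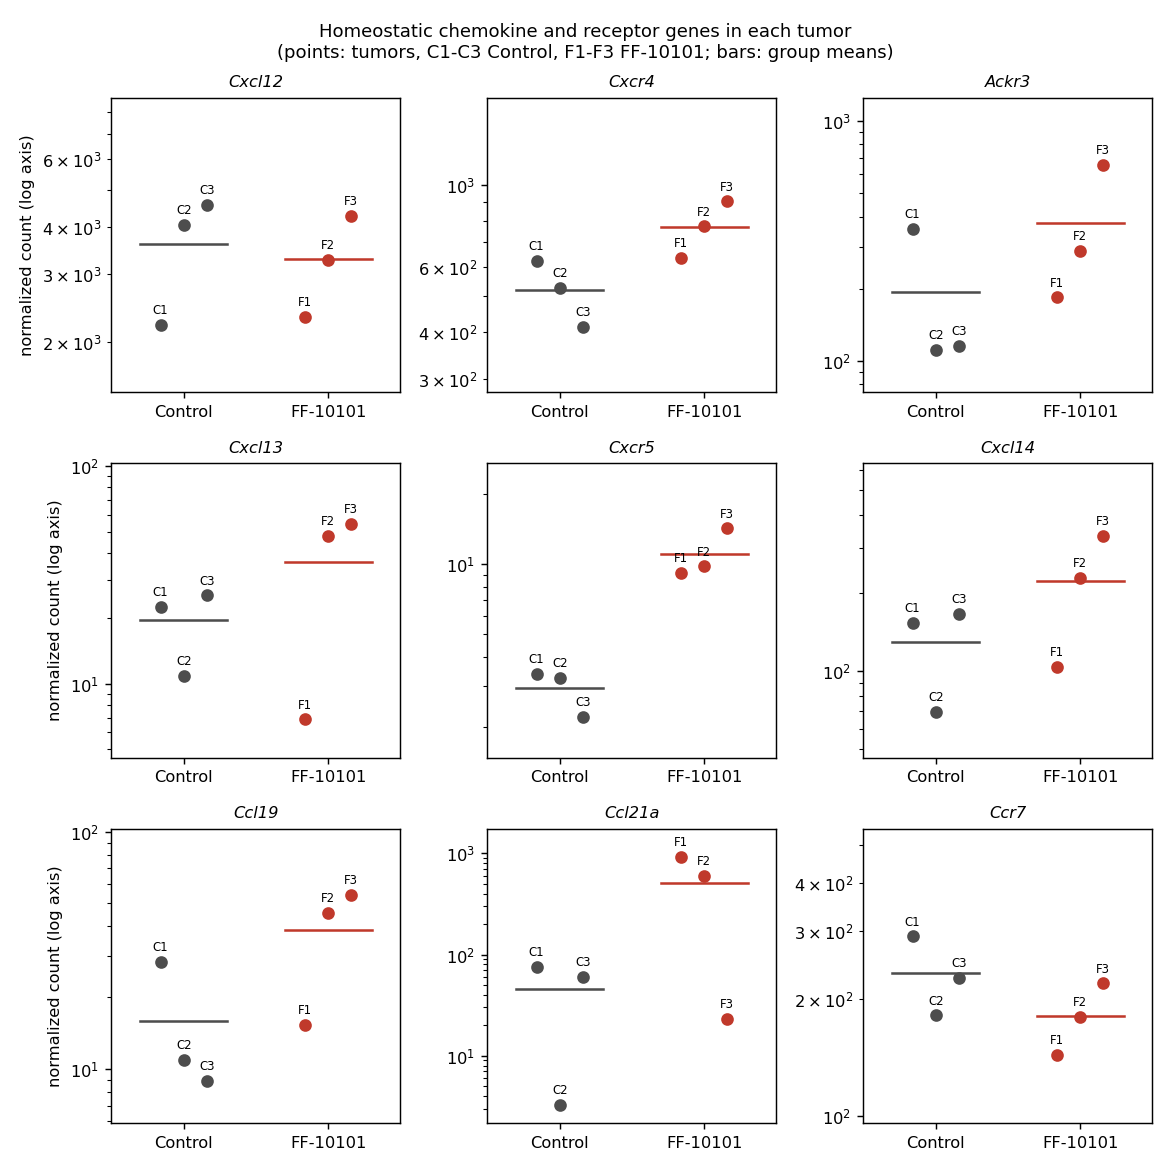
Normalized count (log axis) of each of the 9 genes in each tumor, with control and FF-10101–treated tumors side by side; points are tumors and bars are group means. *Cxcr4* and *Cxcr5* have every treated tumor above every control tumor, and *Ccl21a* spans 3.26 to 923.

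By level per kilobase, normalized counts divided by the median length of each gene's coding transcripts, *Cxcl12* was the highest of the 9 at 1099.5 ± 321.8 (SD, n = 6 tumors). *Cxcr4* followed at 477 ± 129, *Ccl21a* at 322 ± 444 and *Ackr3* at 165 ± 119. The place of *Ccl21a* holds in neither group alone, since it averaged 53.1 per kilobase in the control tumors, below *Ccr7*, *Ackr3* and *Cxcl14*, and 591 in the treated tumors, above *Cxcr4*. The level per kilobase of *Cxcl14* was 107 ± 57.6 and that of *Ccr7* 105 ± 25.7, and lower still were *Ccl19* at 35.8 ± 25.1, *Cxcl13* at 24.3 ± 16.7 and *Cxcr5* at 2.58 ± 1.76. Over the 6 tumors, 3 of the 8 pairs of neighbors in this order did not overlap: *Cxcl12* over *Cxcr4*, *Ccr7* over *Ccl19*, and *Cxcl13* over *Cxcr5*. The other 5 pairs overlapped. The order depends on the transcript length used. With the longest coding transcript of each gene *Cxcl12* averaged 612 and with the shortest 1834, while *Cxcr4* ranged from 358 to 715 and *Ackr3* from 93.1 to 707.

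In the CXCL12 axis, the ligand did not separate the groups, while its receptor *Cxcr4* was higher in each FF-10101–treated tumor than in each control tumor, by a narrow margin. *Cxcl12* (ENSMUSG00000061353) had 2209, 4033 and 4565 normalized counts in control tumors 1, 2 and 3 and 2323, 3273 and 4260.3 in FF-10101–treated tumors 1, 2 and 3. The groups overlapped throughout, with means of 3602 ± 1236 and 3286 ± 969 (SD, n = 3 each). The log2 fold change was −0.11 ± 0.32 (SE, limma adjusted p = 0.882), and its 95% interval ran from −0.85 to 0.63. The sign of this small difference rested on single tumors and turned to 0.12 without FF-10101 tumor 1.

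*Cxcr4* (ENSMUSG00000045382), which encodes the G protein–coupled receptor that CXCL12 activates, had 622, 527 and 413 normalized counts in the control tumors and 634, 773 and 903 in the FF-10101–treated tumors. The groups did not overlap, but control tumor 1 lay just under FF-10101 tumor 1. Means were 521 ± 105 and 770.0 ± 135 (SD, n = 3 each). On the log2 scale the difference was 0.57 ± 0.21 (SE), with a 95% interval of 0.09 to 1.05, an unadjusted p of 0.0255 and an adjusted p of 0.26 by limma. The exact two-sided permutation test gave p = 0.1, the smallest that 3 tumors against 3 allow. Without control tumor 1 the log2 fold change was 0.71 and the limma adjusted p 0.0332. Neutrophils and endothelial cells are among the cells that carry *Cxcr4*, and other leukocytes carry it too. Neutrophil markers were higher at an unadjusted p of 0.05 for 4 of 8 genes and endothelial markers for 7 of 10, where 8.77% of all genes were, and 0 of either list passed the adjusted p. The summed endothelial markers overlapped between the groups. *S100a8*, a neutrophil marker, was 48.9 to 146 in the control tumors and 183 to 241 in the treated tumors. *Pecam1*, the endothelial adhesion molecule, was 605 to 1967 and 1849.8 to 2566. Of other leukocytes, T cell markers summed to 1301 to 2905 in the control tumors and 1379 to 2498 in the treated tumors, and summed macrophage markers were lower in the treated tumors. The part of any of these cells in the *Cxcr4* difference was not tested.

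*Ackr3* (ENSMUSG00000044337), which encodes the receptor that takes up CXCL12 without signaling through G proteins, had 357, 111 and 115 normalized counts in the control tumors and 184, 289 and 657 in the treated tumors. Control tumor 1 exceeded treated tumors 1 and 2, and the groups overlapped. The estimated log2 fold change was 0.97 ± 0.57 (SE, limma adjusted p = 0.421), with a 95% interval of −0.34 to 2.29. It ranged from 0.47 without FF-10101 tumor 3 to 1.52 without control tumor 1, and the latter had an adjusted p of 0.0436. *Ackr3* is found on endothelial and stromal cells. The summed fibroblast markers were 8408 to 16250 in the control group and 16733 to 27959 in the treated group. For both, control tumor 1 was the highest of the controls and FF-10101 tumor 3 the highest of all 6. The orders differed in that control tumor 1 lay below every treated tumor for the fibroblast sum, but above FF-10101 tumors 1 and 2 for *Ackr3*. The part of endothelial and stromal cells in the *Ackr3* values was not tested. *Pdgfra* and *Dpt*, the first genes of the fibroblast list, had log2 fold changes of 0.66 and 1.14 (limma adjusted p of 0.229 each).

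**Figure D2:**
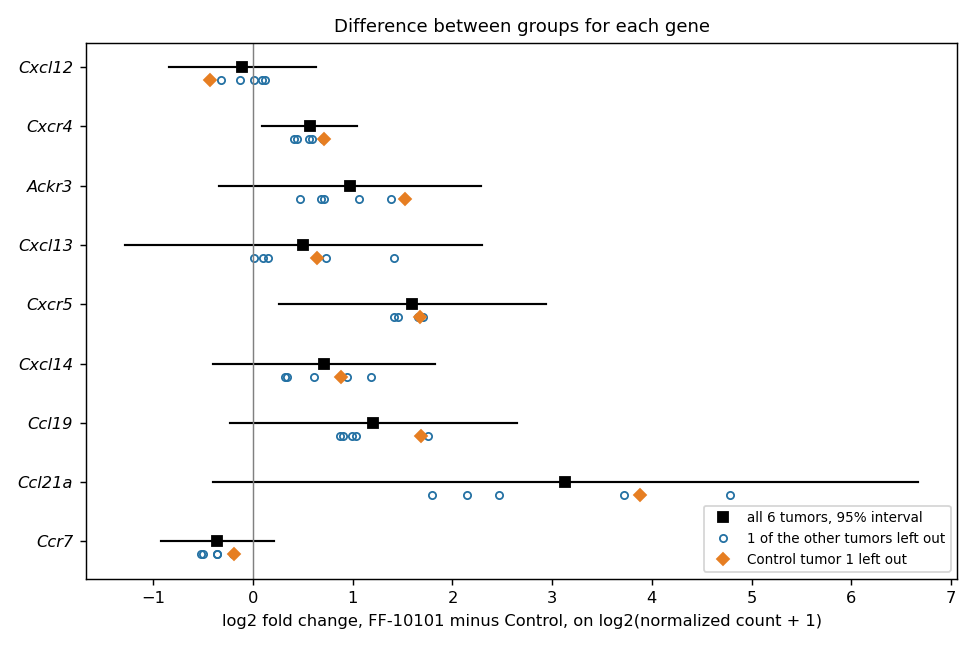
Log2 fold change, FF-10101 minus control, of each of the 9 genes with its 95% interval, together with the estimates when each tumor is left out in turn. The intervals of *Cxcr4* and *Cxcr5* lie above 0 before adjustment for multiple testing, those of the other 7 cross 0.

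In the CXCL13 axis, the ligand had few reads and overlapped between the groups, while *Cxcr5*, near the detection limit, was higher in each FF-10101–treated tumor. *Cxcl13* (ENSMUSG00000023078), the B cell chemoattractant, had 22.5, 10.9 and 25.5 normalized counts in the control tumors and 6.87, 47.8 and 54.2 in the treated tumors. The lowest and the highest of the 6 tumors were both treated. This gave a log2 fold change of 0.51 ± 0.77 (SE, limma adjusted p = 0.764), which ranged from 0.0081 without FF-10101 tumor 3 to 1.41 without FF-10101 tumor 1.

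*Cxcr5* (ENSMUSG00000047880), the receptor for CXCL13, had 3, 3 and 2 reads in the control tumors and 12, 9 and 16 reads in the treated tumors, or 3.38, 3.26 and 2.22 against 9.16, 9.77 and 14.2 normalized counts. The groups did not overlap. With 8 reads in the control group against 37 in the treated group the ratio was 3.74, with a 95% counting interval of 1.71 to 9.29 (exact, covering counting error only). In the fit without a minimum count the log2 fold change was 1.60 ± 0.60 (SE), with an unadjusted p of 0.0236 and an adjusted p of 0.333 by limma, and the exact permutation p was 0.1. Of 8 B cell markers, 5 overlapped between the groups, 2 were lower in every treated tumor, and *Pax5* had 1 read in each of the 6 tumors. *Ms4a1*, which encodes CD20, had 1.13, 13.0 and 12.2 normalized counts in the control tumors and 5.35, 2.17 and 8.89 in the treated tumors. The summed level of 8 B cell markers was 121 to 231 in the control group and 112 to 274 in the treated group, and 3 of the 8 reached the minimum count. *Fcer2a*, which encodes the IgE receptor CD23, and *Blk*, a B cell kinase, were named after their values were seen and lay lower in every treated tumor on few reads, at 3.33 to 5.63 against 0 to 1.53 and 2.17 to 5.55 against 0.89 to 1.53 normalized counts. Markers of follicular helper T cells summed to 529 to 1388 and 1007 to 1367, with *Bcl6*, their defining transcription factor, at 193 to 346 and 287 to 359. All 5 tested estimates of this list lay above 0. Of these 5, 1 was higher in every treated tumor, as 10.9% of all genes tested were: *Cd200*, at 109 to 253 against 263 to 337 (limma adjusted p = 0.245). *Tox2*, under the minimum count, had 1 read in each control tumor and 6, 4 and 3 reads in the treated tumors. Both were named after their values were seen. *Cr2*, which marks follicular dendritic cells, was 0 in 5 of the 6 tumors and 2.29 in FF-10101 tumor 1. Their part in the *Cxcr5* values was not tested.

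*Cxcl14* (ENSMUSG00000021508), a chemokine of epithelia and fibroblasts that attracts monocyte-lineage cells, had 154, 69.5 and 166 normalized counts in the control tumors and 104, 229 and 334 in the treated tumors. FF-10101 tumor 1 lay below 2 of the controls. On the log2 scale the difference was 0.71 ± 0.48 (SE, limma adjusted p = 0.484), with a 95% interval of −0.40 to 1.83. Leaving out control tumor 2 gave 0.32, and leaving out FF-10101 tumor 1 gave 1.18. Skin is a known source of *Cxcl14*. The summed keratinocyte markers were 1031 in FF-10101 tumor 1 and 48.9 to 244 in the other 5 tumors, and *Krt5*, a keratin of the basal epidermis, was 396 in that tumor, 13.3 in control tumor 3 and 0 elsewhere. Their part in the *Cxcl14* values was not tested.

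In the CCR7 axis, *Ccl21a* had the largest difference between the group means of the 9 genes, 46.2 ± 38.0 against 514 ± 455 normalized counts (SD, n = 3 each), and this difference came from FF-10101 tumors 1 and 2. *Ccl21a* (ENSMUSG00000094686) had 75.4, 3.26 and 59.9 normalized counts in the control tumors and 923, 597 and 23.1 in the treated tumors. FF-10101 tumor 3 lay below control tumors 1 and 3, so the groups overlapped, and the highest tumor exceeded the lowest 283-fold. The lowest, control tumor 2, had 3 reads, at the detection limit, so this fold is uncertain. The log2 fold change was 3.13 ± 1.53 (SE, limma adjusted p = 0.351), with a 95% interval of −0.41 to 6.67. It ranged from 1.80 without control tumor 2 to 4.78 without FF-10101 tumor 3.

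*Ccl21b*, a near-identical gene, had 0, 0 and 16.6 normalized counts in the control tumors and 632, 329 and 24.0 in the treated tumors. It followed the order of *Ccl21a* among the treated tumors, and control tumor 3 (15 reads) lay below FF-10101 tumor 3 (27 reads). Reads of these copies cannot be assigned with certainty. Over the 402 coding bases of the annotated *Ccl21b* transcript (GENCODE vM21, GRCm38), the 2 genes differ at 2 exonic positions, T84A and C194T, counted from 1 at the A of the start codon with the *Ccl21a* base first. The stretches from base 70 to 98 and from base 180 to 208 show how little sequence separates the 2 genes, with the differing base in capitals:

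Ccl21a, bases 70 to 98: agtgatggagggggTcaggactgctgcct

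Ccl21b, bases 70 to 98: agtgatggagggggAcaggactgctgcct

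Ccl21a, bases 180 to 208: ggcaatcctgttctCaccccggaagcact

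Ccl21b, bases 180 to 208: ggcaatcctgttctTaccccggaagcact

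Summed over *Ccl21a*, *Ccl21b* and 2 further copies, *Gm13304* (9 reads, all in control tumor 1) and *Gm21541* (0 reads), the level was 85.6, 3.26 and 76.5 normalized counts in the control tumors and 1555, 926 and 47.1 in the treated tumors. The sum does not depend on how reads were split among these 4 genes, but other copies, among them *Gm10591*, were not analysed here. The overlap remained in the sum, with FF-10101 tumor 3 below control tumors 1 and 3. For the sum, the log2 fold change was 3.75 ± 1.51 (SE, limma adjusted p = 0.291).

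The summed lymphatic endothelial markers, and 4 of the 6 singly, had the same order as *Ccl21a* among the treated tumors. Their sum was 561, 403 and 279 normalized counts in FF-10101–treated tumors 1, 2 and 3 and 174 to 258 in the control tumors, without overlap. *Prox1*, the transcription factor that defines lymphatic identity, had 3.38, 0 and 5.55 normalized counts in the control tumors and 51.9, 22.8 and 9.78 in the treated tumors. *Flt4*, the receptor for the lymphatic growth factor VEGF-C, had 109, 30.4 and 35.5 against 242, 205 and 107. Of the 6 markers, 5 were higher at an unadjusted p of 0.05, where 8.77% of all genes were, and 0 passed the adjusted p. The median log2 fold change of the list was 2.12 against 0.02 over all genes tested, and *Foxc2* was the exception at −0.44. *Foxc2* and *Sema3d* did not share the order of *Ccl21a*: *Sema3d* had 26.0, 22.8 and 34.7 in the treated tumors. Lymph node stroma markers, which include *Glycam1* and *Chst4* of high endothelial venules, were low, with a sum of 0 to 5.63 in the control tumors and 26.7 to 36.9 in the treated tumors. The part of lymphatic endothelium in the *Ccl21a* values was not tested.

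**Figure D3:**
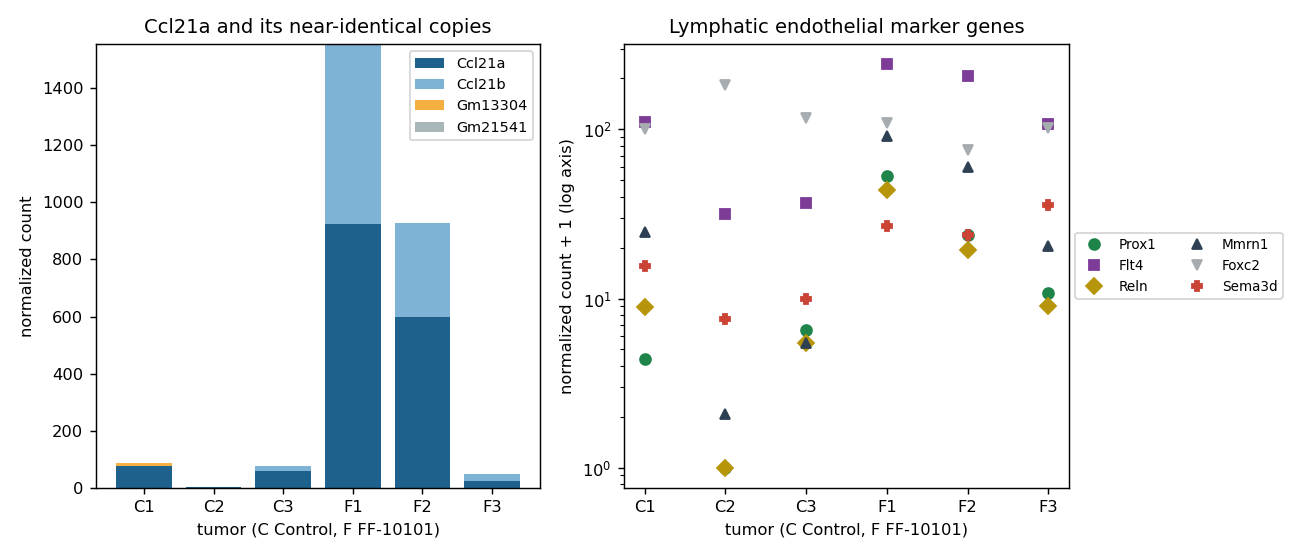
Stacked bars (left, linear axis) give the normalized counts of *Ccl21a* and its copies in control (C) and FF-10101–treated (F) tumors, and points (right, log axis, normalized count + 1) those of 6 lymphatic endothelial markers in the same tumors. FF-10101 tumor 1 is the highest and FF-10101 tumor 3 the lowest of the treated tumors for *Ccl21a* and *Prox1* alike.

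*Ccl19* (ENSMUSG00000071005), the second CCR7 ligand, had 28.1, 10.9 and 8.87 normalized counts in the control tumors and 15.3, 45.6 and 54.2 in the treated tumors. FF-10101 tumor 1, the highest for *Ccl21a*, was the lowest treated tumor for *Ccl19* and lay below control tumor 1. The treated tumors differed by a log2 fold change of 1.21 ± 0.62 (SE, limma adjusted p = 0.367), with a 95% interval of −0.23 to 2.64. *Ccl19* has copies too, among them *Ccl19-ps3*, whose 324 bases match it at 100%, so its reads are uncertain in the same way.

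*Ccr7* (ENSMUSG00000037944), the shared receptor of CCL19 and CCL21, had 290.4, 181 and 227 normalized counts in the control tumors and 144, 180.2 and 219.6 in the treated tumors. It was the sole receptor of the group with a lower mean in the treated tumors, 181 ± 38.0 against 233 ± 54.7 (SD, n = 3 each), and the groups overlapped. The log2 fold change was −0.36 ± 0.25 (SE, limma adjusted p = 0.491), with a 95% interval of −0.93 to 0.21. Leaving out control tumor 1 gave −0.19, and leaving out control tumor 2 gave −0.52. *Fscn1*, a marker of mature dendritic cells that carry CCR7, was 4211 to 4675 in the control tumors and 3177 to 5207 in the treated tumors. The T cell markers, another source of *Ccr7*, summed to 1301 to 2905 and 1379 to 2498, with *Cd3e* at 74.3 to 249 and 102 to 220. Neither list had a summed level that separated the groups, but *Fscn1* makes up most of the dendritic cell sum, and 3 of its 9 genes were apart, 2 higher and 1 lower, where 20.2% of all genes tested were apart in either direction. *Cacnb3*, a calcium channel subunit, was 569.6 to 719 against 517 to 550.2 (limma adjusted p = 0.367). *Socs2*, a suppressor of cytokine signaling, and *Apol7c*, both named after their values were seen, were 113 to 188 against 308 to 349.6 and 24.4 to 164 against 245 to 391 (adjusted p = 0.224 and 0.229).

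Ligand and receptor were set against each other within each tumor as the log2 ratio of their normalized counts, each plus 1, which largely cancels the depth of the tumor. The ratio of *Ccl19* to *Ccr7* was −3.32, −3.94 and −4.53 in the control tumors and −3.15 to −1.96 in the treated tumors. These groups did not overlap, with a difference of 1.56 (exact two-sided permutation p = 0.1), although FF-10101 tumor 1, at the low end, lay close to control tumor 1. The ratio of *Ccl21a* to *Ccr7* was −1.93, −5.42 and −1.91 against 2.68, 1.72 and −3.19, a difference of 3.49 with overlap (exact permutation p = 0.3), which was 2.32 with control tumor 2 left out and 5.29 with FF-10101 tumor 3 left out. The ratios of *Cxcl12* to its receptors lay the other way. That of *Cxcl12* to *Cxcr4* was 1.83, 2.93 and 3.46 in the control tumors and 1.87, 2.08 and 2.24 in the treated tumors, and that of *Cxcl12* to *Ackr3* had a mean of 4.36 against 3.28. With overlap between the groups in both, their differences were −0.68 and −1.08 (exact permutation p = 0.4 each). They ranged from −1.14 to −0.32 and from −1.95 to −0.62, the ends being without control tumor 1 and without control tumor 3. The ratio of *Cxcl13* to *Cxcr5* differed by −1.09 with overlap (exact permutation p = 0.4), and by −0.30 without FF-10101 tumor 1. It depends on the added constant, being −0.23 with 10 in place of 1. With 5 ratios compared and 0.1 as the smallest p the design allows, none could pass a threshold of 0.05.

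**Figure D4:**
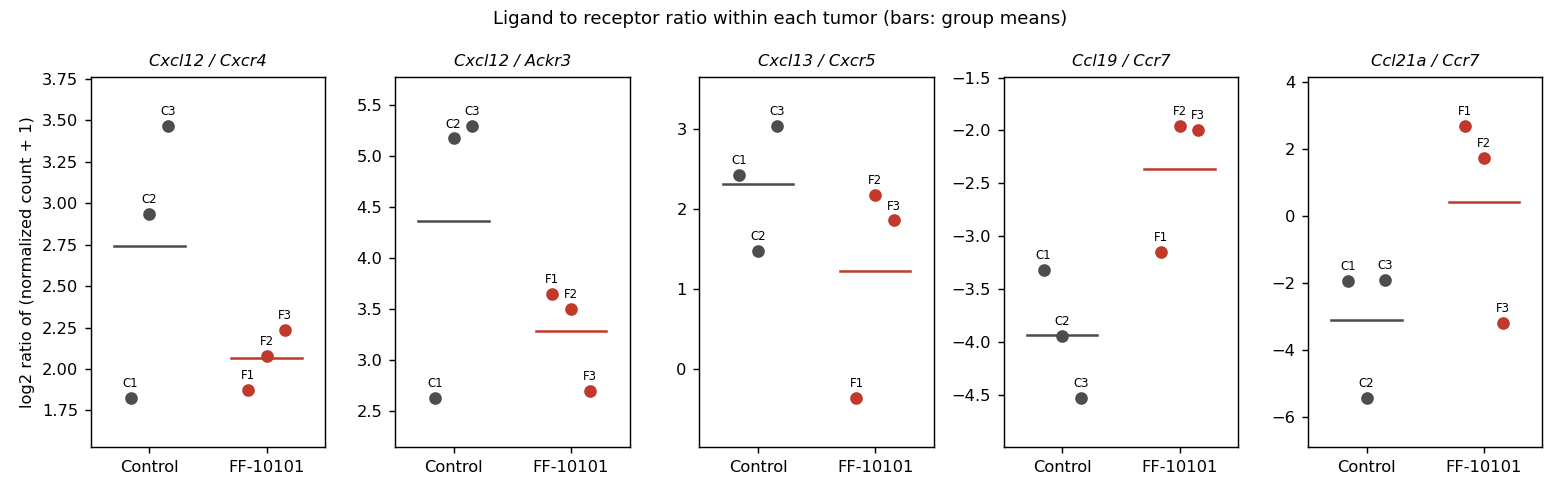
Log2 ratio of ligand to receptor (normalized count + 1) in each tumor for 5 pairs; points are tumors and bars are group means. The *Ccl19* to *Ccr7* ratio is the pair whose groups do not overlap, and the *Ccl21a* to *Ccr7* ratio is spread widest.

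Across the 6 tumors, *Cxcr4*, *Ackr3* and *Ccl19* had like profiles on the log2 scale, and *Ccl21a* did not share them. Pearson r was 0.93 between *Cxcr4* and *Ccl19*, 0.93 between *Ackr3* and *Ccl19* and 0.88 between *Cxcr4* and *Ackr3*. *Cxcl13* and *Cxcl14* had r = 0.91. *Ccl21a* had r = 0.23 with *Ccl19* and −0.58 with *Cxcl12*. These are descriptions over 6 tumors that share their libraries and groups. *Cxcr5*, under the minimum count, was left out of these correlations and of those that follow. The genes most like each of the other members among 12890 candidates were *Alkbh8* (r = 0.985) and *Cdc40* (0.982) for *Cxcl12*, *Fam168a* and *Ccdc82* (0.998 each) for *Cxcr4*, and *Gbe1* (0.996) and *Gdap2* (0.995) for *Ackr3*. For *Ccl19* they were *Cd160* and *Klra8* (0.997 each), both genes of natural killer and T cells, and for *Ccl21a* *Pin4* (0.986) and *D17H6S53E* (0.978). *Gstp2* and *Entpd4* (0.987 each) were most like *Cxcl13*, *Glrb* (0.989) and *Fxyd1* (0.986) most like *Cxcl14*, and *Lrmp* (0.993) and *Ssc4d* (0.984) most like *Ccr7*. Each is the highest of many r values over few tumors.

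The promoters of these 3 genes of like profile, and of *Ccl21a*, which lies near *Ccl19* on chromosome 4 but differed in profile, are given as the 250 bases before the start site from RefSeq (GRCm38.p6), 5′ to 3′ on the strand of the gene. Promoters of 7 of the 9 genes were matched by symbol. Capitals mark matches on either strand to GGG and CC with any 5 bases between them (a loose NF-κB pattern), GAAA and GAAA with any 2 bases between them (an interferon-stimulated response element pattern), TTC and GAA with any 3 bases between them (a STAT pattern) or ACGTG (the core of a hypoxia response element):

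Cxcr4, chr1:128592300-128592549 (minus strand): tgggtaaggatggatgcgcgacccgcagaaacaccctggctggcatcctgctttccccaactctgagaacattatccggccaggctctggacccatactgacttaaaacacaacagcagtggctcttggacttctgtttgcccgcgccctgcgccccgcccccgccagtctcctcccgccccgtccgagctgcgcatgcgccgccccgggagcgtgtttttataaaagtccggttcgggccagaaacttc

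Ackr3, chr1:90203730-90203979 (plus strand): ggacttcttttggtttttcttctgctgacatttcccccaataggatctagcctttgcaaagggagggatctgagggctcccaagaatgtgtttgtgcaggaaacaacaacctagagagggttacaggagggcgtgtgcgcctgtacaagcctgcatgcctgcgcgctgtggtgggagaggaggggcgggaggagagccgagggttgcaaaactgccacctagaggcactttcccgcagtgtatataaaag

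Ccl19, chr4:42756366-42756615 (minus strand): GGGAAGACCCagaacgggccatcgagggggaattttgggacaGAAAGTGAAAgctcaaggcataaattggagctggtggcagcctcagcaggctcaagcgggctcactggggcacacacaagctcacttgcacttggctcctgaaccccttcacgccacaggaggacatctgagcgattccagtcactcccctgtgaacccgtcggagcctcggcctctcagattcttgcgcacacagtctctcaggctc

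Ccl21a, chr4:42773992-42774241 (minus strand): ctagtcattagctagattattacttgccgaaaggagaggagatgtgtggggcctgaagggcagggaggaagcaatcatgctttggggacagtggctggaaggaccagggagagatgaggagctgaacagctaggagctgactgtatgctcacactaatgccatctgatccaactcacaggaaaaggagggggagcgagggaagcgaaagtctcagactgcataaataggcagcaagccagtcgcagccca

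*Ccl19* held GGGAAGACCC at 250 to 241 bases and GAAAGTGAAA at 208 to 199 bases before the start, and *Cxcr4*, *Ackr3* and *Ccl21a* held none of these letters in this window. Of 32851 promoters of the same length, 45.8% held the NF-κB pattern, 2.98% the interferon-stimulated pattern, 7.02% the STAT pattern and 16.6% ACGTG, against 3, 2, 1 and 0 of the 7 promoters here. The other interferon-stimulated pattern was in *Cxcl14*, GAAACAGAAA at 172 to 163 bases before the start, beside TTCTGAGAA at 191 to 183 bases. A match is a description of the sequence and not a bound site.

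Genes around these axes were followed in 4 lists, and in each 0 genes passed an adjusted p of 0.05. In the list of other homeostatic chemokines and receptors, 12 of 18 genes were tested, and 3 were higher at an unadjusted p of 0.05 (8.77% of all genes were). The median log2 fold change was 0.22 against 0.02 over all genes tested. The decoy receptor *Ackr2*, which clears inflammatory CC chemokines and is known from lymphatic endothelium, had 21.4, 2.17 and 8.87 normalized counts in the control tumors and 105, 63.0 and 29.3 in the treated tumors, without overlap (log2 fold change 2.73 ± 0.77 SE, limma adjusted p = 0.229). Its treated tumors stood in the order of *Ccl21a* and *Prox1*. *Ackr4*, the scavenger of CCL19 and CCL21, was named after its values were seen and had 0, 3.26 and 3.33 against 10.7, 6.51 and 9.78 normalized counts, at or near the detection limit in the control tumors. *Ccrl2*, which binds chemerin and does not signal, was likewise named after its values were seen and had 155, 71.7 and 55.5 against 148, 182 and 218, with overlap through control tumor 1. In contrast, *Ccl22*, a dendritic cell and macrophage ligand also named after its values were seen, had 307, 231 and 215 against 136, 270.3 and 157, and overlapped.

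Among 22 tested genes of CXCL12 handling and CXCR4 signaling, 2 were higher at an unadjusted p of 0.05, where 8.77% of all genes were. The median log2 fold change was −0.07 against 0.02 over all genes tested. *Ebf1*, a transcription factor of B cells and of mesenchymal cells that make CXCL12, was 329, 393 and 327 in the control tumors and 399, 478 and 497 in the treated tumors (log2 fold change 0.39, limma adjusted p = 0.306). *Arrb2*, which encodes the β-arrestin that internalizes CXCR4, lay the other way, at 1105 to 1673 against 875 to 1047 (−0.43, adjusted p = 0.31). *Mif*, an alternative ligand of CXCR4, was 3549 to 3985 against 2601 to 3179 (−0.32, adjusted p = 0.328). These 3 genes did not overlap between the groups, as 10.9% of all genes tested did not in the higher and 9.37% in the lower direction.

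In the list of lymphotoxin and lymphoid stroma genes, 17 of 21 were tested, and 2 were higher at an unadjusted p of 0.05 (8.77% of all genes were). The median was 0.21 against 0.02 over all genes tested. *Vcam1*, the vascular adhesion molecule for lymphocytes, had 2929, 1493 and 1190.2 normalized counts in the control tumors and 3799.6, 3421 and 3382 in the treated tumors (log2 fold change 1.03 ± 0.31 SE, limma adjusted p = 0.229). *Il7*, a survival factor for T cells made by stroma, was 11.1 to 31.5 against 38.0 to 46.6 (1.31 ± 0.46 SE, adjusted p = 0.253). *Lta*, which encodes lymphotoxin α, was 5.43 to 12.4 against 15.2 to 17.8 (0.75, adjusted p = 0.473). These 3 were higher in every treated tumor, as 10.9% of all genes tested were. *Ltbr*, the receptor for lymphotoxin, was the gene of the list that was lower in every treated tumor (989 to 1148 against 956 to 983, adjusted p = 0.689), as 9.37% of all genes were. In contrast, *Ltb*, the partner of *Lta* that was named after its values were seen, was 232 to 471 against 256 to 316 and overlapped. *Chst4*, a sulfotransferase of high endothelial venules also named after its values were seen, had 0 reads in each control tumor and 9.16, 6.51 and 11.6 normalized counts in the treated tumors, at least 2.73-fold higher against a floor of 3 reads per library (limma adjusted p = 0.144 in the fit without a minimum count).

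All 13 genes of lymphocyte egress and positioning were tested, and 2 were higher at an unadjusted p of 0.05 (8.77% of all genes were). The median was 0.27 against 0.02 over all genes tested. *Cyp7b1*, an enzyme that makes the oxysterol ligand of the positioning receptor GPR183, had 272, 46.7 and 56.6 normalized counts in the control tumors and 413, 457 and 397 in the treated tumors (log2 fold change 2.22 ± 0.59 SE, limma adjusted p = 0.229). The receptor gene *Gpr183*, with *Ch25h* and *Hsd3b7* of the same list, overlapped between the groups, all named after their values were seen. Their log2 fold changes were −0.27, −0.48 and −0.22. Of the 13 estimates in the list, 9 lay above 0 and 4 below. *S1pr1*, the receptor by which lymphocytes follow sphingosine 1-phosphate out of tissues and which endothelium also expresses, had 1195, 478 and 507 against 1346, 1468 and 1625 (1.16 ± 0.33 SE, adjusted p = 0.229). For *Vcam1*, *Cyp7b1* and *S1pr1* alike, control tumor 1 was the control nearest to the treated tumors, as it was for the endothelial markers, which summed to 7266 in control tumor 1, 2406 and 2920.0 in the other controls and 7193 to 7754 in the treated tumors. Without control tumor 1, adjusted p values under 0.05 were reached by 5, 4, 6 and 4 genes of the 4 lists in the order given, where 22% of all genes reached it.

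**Figure D5:**
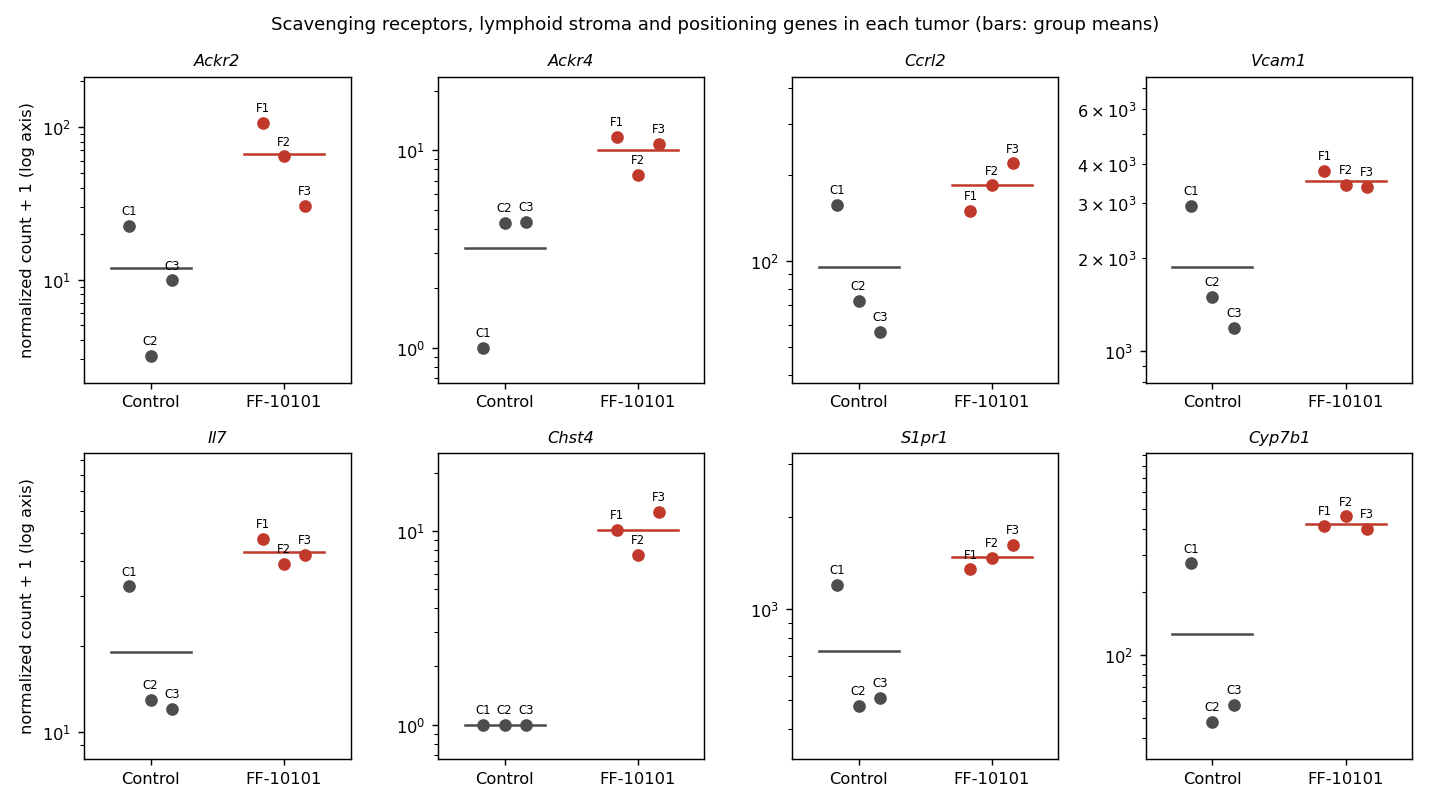
Normalized count + 1 (log axis) in each tumor of 8 genes around the homeostatic axes, of which *Ackr4*, *Ccrl2* and *Chst4* were chosen after their values were seen; points are tumors and bars are group means. Control tumor 1 lies nearest to the FF-10101–treated tumors for *Vcam1*, *Cyp7b1* and *S1pr1*.

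The remaining marker lists did not separate the groups by their sums. Plasma cell markers summed to 1229 to 1640 in the control tumors and 1284 to 1507 in the treated tumors, conventional dendritic cell markers to 579 to 1001 and 340 to 771, and mature dendritic cell markers to 5445 to 6125 and 4764 to 6634. Adipocyte markers summed to 329 to 784 and 306 to 1529, and skeletal muscle markers to 3259 to 6782 and 3076 to 11009. *Adgre1*, which encodes the macrophage marker F4/80, was 2179 to 2995 in the control tumors and 997 to 1634 in the treated tumors, whereas *Csf1r* overlapped at 3568 to 8961 and 3295 to 5024.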

How the data were processed

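RNA of 3 control and 3 FF-10101–treated MCA205 tumors was compared, grouped by the treatment and titles in the sample labels. The labels describe the tumors of a group as biological replicates. Per the submitters' processing notes and the study's methods, the authors used fastp version 0.19.5, Salmon version 1.5.1 with the GENCODE vM27 annotation, and DESeq2 version 1.22.1. The deposited values are log2 values, 1 per gene and tumor, as the variance-stabilizing transformation of DESeq2 gives them. Analysis had been planned for normalized counts, so these were recovered by the exact inverse, which gave whole reads for 100% of 325854 values (tolerance 1e-06). Salmon splits reads of near-identical genes by estimation.

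Normalized counts were tested as log2(normalized count + 1), which understates changes of low genes, in R version 4.3.3 with limma version 3.58.1 (mean-variance trend, treatment as the only factor) over the 13963 genes averaging 10 or more, adjusted by the Benjamini-Hochberg method. *Cxcr5* was tested without the minimum. Intervals (95%) and floors (3 reads) cover their stated error only. Names (51484 identifiers) came from GENCODE vM21 by stable ID, and 2 list genes, *Ccl21c* and *Fdcsp*, were not found. Copies of transcripts were searched with BLAST version 2.17.0 at 97% identity over 80% of the shorter transcript.

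The members, the 4 pathway lists and 16 marker lists (B cell, plasma cell, T cell, follicular helper T cell, mature and conventional dendritic cell, macrophage, neutrophil, fibroblast, endothelial, lymphatic endothelial, pericyte, lymph node stroma, keratinocyte, adipocyte and skeletal muscle) were chosen with earlier results of these data known. Genes were named as members, as the first genes of a marker list, as the 3 largest non-overlapping differences of a pathway list, or as the 2 highest r to a member, where genes named Gm or Rik and pseudogenes were left out. Alternatives were a pseudocount of 0.5 or 10, a minimum mean of 50 or none, quantile normalization or scaling to the 75th percentile, a fit without the trend, a replicate block, each tumor left out, the deposited log2 values and limma-voom. The values of 1 B cell marker are not reported here. The steps were tested on simulated data.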

Additional observations from a re-analysis of the deposited data

How the results depend on the processing

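There were 148 combinations of a result with an alternative other than leaving out a tumor. In these, every log2 fold change kept its sign and its side of the threshold, and every count of called genes stayed at 0. The ligand to receptor ratios kept their sign under the other pseudocounts and moved by less than the pooled SD within groups. *Cxcr4* ranged from 0.53 to 0.59 in log2 fold change (adjusted p 0.247 to 0.506) and *Ccl21a* from 2.22 to 3.75, the highest being the sum of its copies. *Cxcr5* ranged from 0.48 to 1.73, *Cxcl13* from 0.17 to 0.52 and *Ccl19* from 0.58 to 1.23. With a mean of at least 50, *Cxcl13*, *Ccl19* and *Cxcr5* had no value. Scaling moved the median of all genes to 0.04 (75th percentile) or −0.02 (quantile).

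Replicate numbers did not pair the tumors: deviations of same-numbered tumors had r = −0.29, −0.04 and −0.28. With the replicate block, 0 members and 1 gene overall passed an adjusted p of 0.05, 0 members had an unadjusted p under 0.05, and *Cxcr4* had an adjusted p of 0.506.

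With each tumor left out in turn, the members called numbered 0 to 2, the genes called in the 4 lists 0 to 5, 0 to 4, 0 to 6 and 0 to 4, and in each the highest was without control tumor 1. The log2 fold change ranged from −0.43 to 0.12 for *Cxcl12*, which was above 0 without control tumors 2 or 3 (0.0058 and 0.095) or FF-10101 tumor 1, from 0.41 to 0.71 for *Cxcr4* and from 0.47 to 1.52 for *Ackr3*. The cause was not tested. Depth limits *Cxcr5*, *Cxcl13* and *Ccl19*, which had 2 to 61 reads per tumor, and also *Ccl21a* in control tumor 2, with 3 reads. The 3 tumors per group limit every comparison.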
